A study of Homo sapiens with 12 samples.

Results

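The epithelial-mesenchymal transition (EMT) genes FN1, VIM, CDH1, CDH2, CDH11, EPCAM, ZEB1, ZEB2, SNAI2 and TWIST1 were followed in RPMI2650, a human nasal epithelial cell line of tumour origin that was cultured with its upper face in air. They were chosen by gene name and make up 10 of the 50868 genes in the deposited table. RNA was sequenced after 7 days with 1 µM PFHxA (perfluorohexanoic acid, 4 libraries), after 7 days with 1 µM PFBA (perfluorobutanoic acid, 4 libraries) and in control cells (4 libraries). All 12 libraries come from this wild-type line. PFHxA and PFBA are carboxylic acids with a perfluorinated chain, which is longer in PFHxA. The study asked how acids of different chain length change the transcriptome of nasal epithelial cells. No vehicle is named for the control cells, and their labels give no time in culture. Whether the 4 libraries of each group are separate cultures is not in the labels, so p-values measure the spread between these libraries, which may be technical. Libraries carry the letters a to d of the table's columns, and a letter does not pair libraries across groups.

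In EMT, epithelial cells loosen their junctions and take on a motile, mesenchymal form. Transcription factors of the SNAIL, ZEB and TWIST families repress CDH1, the gene for E-cadherin, by binding E-box motifs, while mesenchymal genes such as FN1, VIM and CDH2 come on. The miR-200 microRNAs hold the ZEB factors down, and ZEB factors in turn repress the miR-200 genes. Carcinoma lines often hold an intermediate state with genes of both kinds.

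After PFHxA, FN1 and CDH11 rose and EPCAM fell relative to control, by 1.24-fold, 1.17-fold and 0.884-fold. Of the 10 genes, 8 passed the filter on low counts, while CDH2 and TWIST1 had almost no reads. The count of 3 called genes among these 8 stands beside 14.9% of the 16554 tested genes called in the same comparison (edgeR quasi-likelihood F test, Benjamini-Hochberg adjusted p under 0.05). By direction, 2 of the 8 were higher and 1 lower, against 6.08% and 8.82% of all tested genes. The same 3 genes had groups that did not overlap, which held for 20.7% of all tested genes. The median log2 fold of the 8 genes was 0.02, and that of all tested genes was -0.00385. After PFBA, none of the 8 genes was called against control in the edgeR test, in limma-voom or in DESeq2. An unadjusted edgeR p under 0.05 was seen for 3 of the 8 and for 1632 of the 16554 tested genes. Over all genes, 0.00604% were called in that comparison, a single gene. Between PFHxA and PFBA, none of the 8 was called by edgeR, limma-voom or DESeq2. Here 2 of the 8 had an unadjusted edgeR p under 0.05, as did 4399 of the 16554 tested genes, a similar share. Of all tested genes, 10.9% were called there, 3.84% higher and 7.07% lower after PFHxA. Those comparisons share libraries, so their values are set side by side and not correlated.

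**Figure D1:**
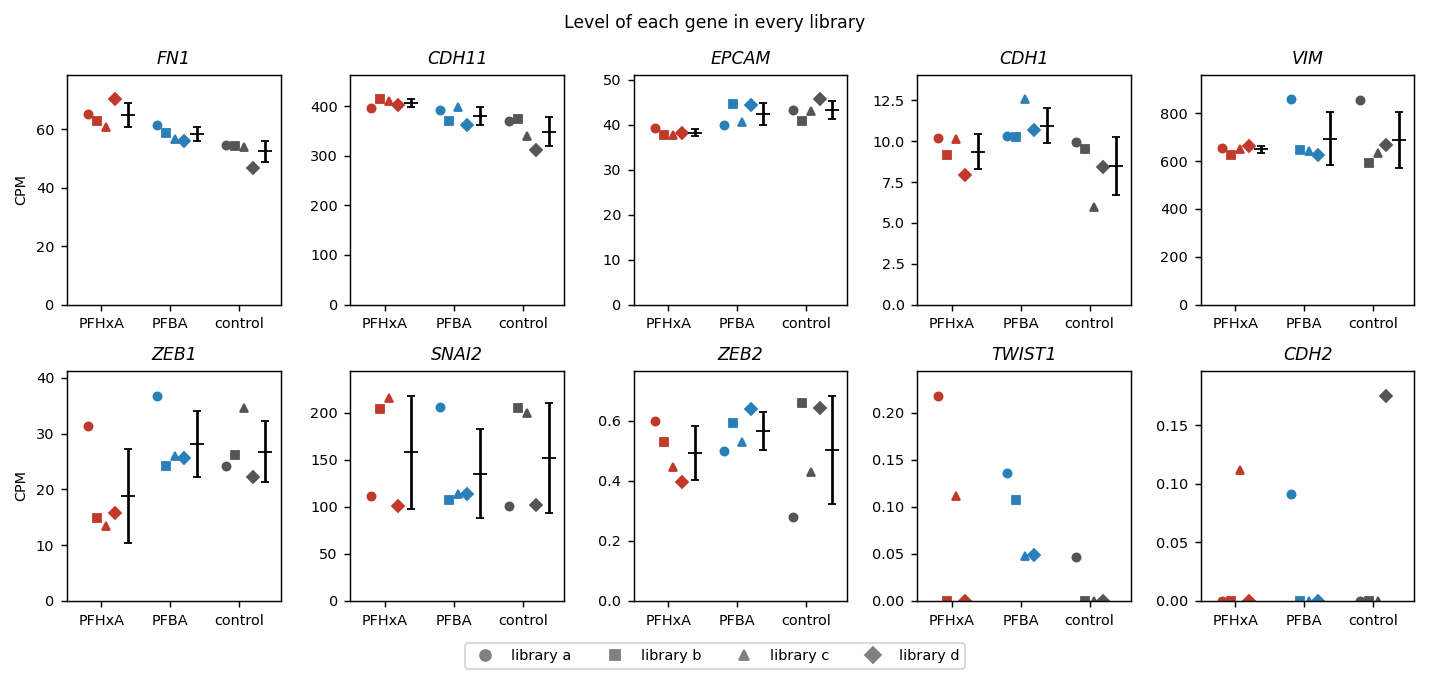
Level in CPM (counts scaled to library size, vertical axis from 0) of the 10 genes in each of 12 libraries, with PFHxA left, PFBA in the middle and control right. Points are libraries, marked by column letter, and black bars are the mean and SD of 4 libraries, not drawn for TWIST1 and CDH2. FN1 and CDH11 lie higher and EPCAM lower in all PFHxA libraries than in any control library.

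Library totals ran from 16941599 to 21879105 counts, and the tested genes had a biological coefficient of variation of 0.127. Relative to the mean of each gene over the 12 libraries, all PFHxA libraries favoured GC-rich transcripts. In them this log2 deviation changed by 0.0674 to 0.0984 per 10 percentage points of transcript GC content. It changed by -0.0683 to -0.00362 in PFBA libraries and by -0.0621 to -0.00849 in control libraries. These slopes compare the libraries with each other and do not give the GC preference of a library on its own. Genes called higher after PFHxA than in control had a median GC content of 55.6%, those called lower 39.5% and those not called 49.1%. Folds are therefore also given after a fit that removes a trend over transcript GC and length from every library, called the trend-removed fit. The slopes were positive in all PFHxA libraries and negative in all others. This fit can thus take out a response to PFHxA as well as a technical trend, and these cannot be told apart here. The mitochondrial share of counts also moved with the groups. It was 11.7%, 12.9%, 12.9% and 12.7% in PFHxA libraries a to d, 11.1% to 11.7% in PFBA libraries and 9.15% (control d) to 11.9% in control libraries. PFHxA b, c and d thus lay above every other library, and the part of this share in the results below was not tested.

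The label of an epithelial cell was checked against 15 epithelial markers, of which 12 averaged at least 1 CPM. Their summed level was 4198 to 4468 CPM in PFHxA libraries, 3784 to 4018 CPM in PFBA libraries and 4096 to 4202 CPM in control libraries. The markers of basal epithelium went both ways in level. KRT5, a basal keratin gene, averaged 2046 CPM after PFHxA, 1812 CPM after PFBA and 1921 CPM in control cells. The other basal markers were low, with means over the 12 libraries of 0.495 CPM for the keratin gene KRT14, 0.443 CPM for the keratin gene KRT15 and 1.82 CPM for TP63, the basal transcription factor gene. The simple-epithelium keratin gene KRT7 averaged 1405 CPM after PFHxA, 1244 CPM after PFBA and 1318 CPM in control cells. KRT5 and KRT7 made up most of the summed level, so its group ranges reflect mainly these genes. Both were called higher after PFHxA than after PFBA (edgeR adjusted p = 0.0117 and 0.0163). Neither was called there in the trend-removed fit (edgeR adjusted p = 0.288 and 0.291). GRHL2, a factor that keeps epithelia in their epithelial state, averaged 0.0510 CPM after PFHxA and had no count after PFBA or in control cells. Of 10 fibroblast markers, 4 averaged at least 1 CPM, and the list summed to 42.1 to 46.4 CPM in PFHxA libraries, 37.4 to 44.1 CPM in PFBA libraries and 38.3 to 45.1 CPM in control libraries. The 4 were the receptor genes PDGFRB (26.1 CPM over the 12 libraries) and PDGFRA (1.86 CPM), the surface antigen gene THY1 (11.5 CPM) and the collagen gene COL1A1 (2.31 CPM). Of the other 6, COL1A2 and LUM, a collagen and a proteoglycan gene of fibroblasts, averaged 0 CPM after PFHxA. COL1A2 also averaged 0 CPM after PFBA and 0.0117 CPM in control cells. LUM averaged 0.0114 CPM after PFBA and 0.0243 CPM in control cells. Of 10 neural and neuroendocrine markers, 3 averaged at least 1 CPM. That list summed to 54.9 to 69.5 CPM in PFHxA libraries and 77 to 80.1 CPM in PFBA libraries. In control libraries its sum was 58.9 to 91.7 CPM. Among 6 endothelial markers and 6 leukocyte markers, 1 of each list averaged at least 1 CPM. In bulk RNA, fewer cells of a type and less RNA per cell cannot be told apart.

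The line expressed mesenchymal and epithelial members side by side. Levels are compared between genes as CPM per kilobase of the longest GENCODE 29 transcript, with the SD over 12 libraries. VIM, the intermediate filament gene of mesenchymal cells, was first with 253.9 ± 32.6. The mesenchymal cadherin gene CDH11 followed with 55.0 ± 4.46, and SNAI2, the zinc finger repressor also called SLUG, had 52.4 ± 18.1. EPCAM, the gene for an adhesion molecule of epithelial cells, had 24.0 ± 1.65. Below them came FN1 with 6.38 ± 0.672, ZEB1 with 3.92 ± 1.19 and CDH1 with 1.96 ± 0.334. ZEB2, TWIST1 and CDH2 closed the order at 0.0543, 0.0360 and 0.00727 CPM per kilobase.

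The ranges of the 12 libraries overlapped between CDH11 and SNAI2, FN1 and ZEB1, ZEB1 and CDH1, ZEB2 and TWIST1, and TWIST1 and CDH2, and no other neighbours overlapped. With the merged exons of all transcripts as the length, a choice made after the values were seen, SNAI2 (43.7) came before CDH11 (28.3) and TWIST1 (0.0295) before ZEB2 (0.0208), and the other members kept their places. CDH11 was the most abundant of the 3 cadherin members on both scales, far above CDH1, the E-cadherin gene, and CDH2, the N-cadherin gene.

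**Figure D2:**
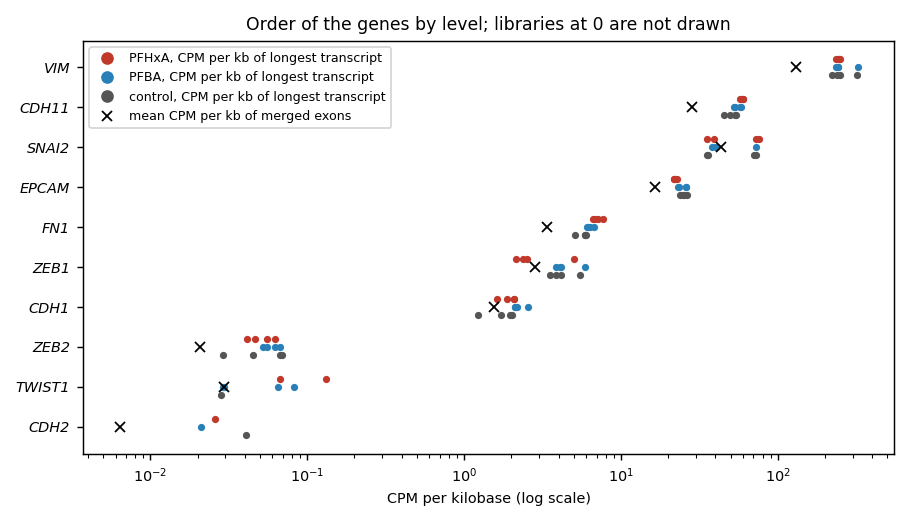
Level in CPM per kilobase on a log axis, with 1 row per gene in descending order of the mean. Coloured points are single libraries scaled by the longest transcript (red PFHxA, blue PFBA, grey control; libraries at 0 are left out), and crosses are means scaled by merged exons. VIM, CDH11, SNAI2 and EPCAM stand above the rest, and ZEB2, TWIST1 and CDH2 are the lowest on both scales.

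Among the transcription factors, SNAI2 was abundant and split into high and low libraries that crossed the groups. It had 111, 204, 215 and 101 CPM in PFHxA libraries a to d. In PFBA libraries a to d it had 205, 108, 113 and 114 CPM. In control libraries a to d it had 101, 205, 199 and 102 CPM. In each group the libraries fell either between 101 and 114 CPM or between 199 and 215 CPM, and the groups overlapped fully. PFHxA against control gave a log2 fold of 0.06 (SE 0.368, 95% interval -0.77 to 0.88, adjusted p = 0.945). It was -0.17 for PFBA against control (interval -0.99 to 0.66, adjusted p = 0.916) and 0.22 for PFHxA against PFBA (interval -0.60 to 1.05, adjusted p = 0.76).

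SNAI2 was not alone in varying inside every group. Of 10072 genes with a mean of at least 10 CPM, 293 had a highest library at least 1.5 times the lowest in each of the 3 groups, and SNAI2 ranked 122 among all by this measure, which was chosen after its values were seen. The median ratio of highest to lowest library within a group was 1.15. The zinc finger gene ZNF264, 1 of the least even, had ratios of 10.1 in PFHxA, 21.8 in PFBA and 9.27 in control libraries.

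ZEB1, a zinc finger and homeodomain repressor of CDH1, averaged lower after PFHxA, but not past the threshold. It had 31.4, 14.8, 13.4 and 15.7 CPM in PFHxA libraries a to d. It had 36.8, 24.2, 26.0 and 25.6 CPM in PFBA libraries and 24.1, 26.2, 34.5 and 22.1 CPM in control libraries. PFHxA b, c and d lay below every PFBA and control library, while PFHxA a was the third highest of the 12. PFHxA b, c and d were also the 3 libraries with the highest mitochondrial share of counts. PFHxA against control gave a log2 fold of -0.51 (SE 0.275, interval -1.12 to 0.10, adjusted p = 0.265), and PFHxA against PFBA gave -0.58 (interval -1.19 to 0.03, adjusted p = 0.21). Without PFHxA a these became -0.87 (adjusted p = 0.00986) and -0.94 (adjusted p = 0.00779), so this single library decides the call. For PFBA against control the fold was 0.08 (interval -0.53 to 0.68, adjusted p = 0.953). ZEB1 has a transcript GC content of 38.5%, and in the trend-removed fit its fold for PFHxA against control was -0.38 (adjusted p = 0.516). The antisense gene ZEB1-AS1, which overlaps the start of ZEB1, had 801 counts over the 12 libraries, and reads of an overlap cannot be assigned without a stated strand setting.

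The ZEB1 promoter window is shown because factors of the SNAIL and ZEB families act on E-box motifs, and ZEB1 is the factor among the members whose call turned on 1 library. It is the first of 7 windows listed for ZEB1 in the RefSeq promoter table (GRCh38.p14), chr10:31318167-31318466 on the plus strand, from 250 bases before the start of transcription to 50 after. Capitals mark CAGGTG, which begins 57 bases before the start.
ZEB1 promoter: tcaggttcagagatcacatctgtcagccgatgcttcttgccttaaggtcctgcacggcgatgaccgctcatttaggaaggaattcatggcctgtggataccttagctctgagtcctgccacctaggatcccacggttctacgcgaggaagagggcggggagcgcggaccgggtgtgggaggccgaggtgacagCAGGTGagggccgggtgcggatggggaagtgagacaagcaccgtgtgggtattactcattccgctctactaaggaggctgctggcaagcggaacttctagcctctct
CACCTG or CAGGTG, the same motif read on either strand, occurs in 20.6% of 35116 promoter windows of this length, and the wider motif CANNTG in 68.7%. The first listed windows of FN1, VIM, CDH2 and ZEB2, the other members with a window, held neither CACCTG nor CAGGTG. For CDH2, 2 windows are listed, and only the first was looked at.

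Mature miR-200c, miR-200b and miR-141, members of the miR-200 family, are shown because the ZEB transcripts carry many matches to their seeds. Sequences are those of RefSeq on GRCh38.p14, 5′ to 3′, with the seed (bases 2 to 8) in capitals. The first and second share a seed, and the third has another.
miR-200c-3p: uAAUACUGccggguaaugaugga
miR-200b-3p: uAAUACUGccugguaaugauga
miR-141-3p: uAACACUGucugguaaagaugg
The complement of the first seed, CAGTATT, occurs 6 times in the longest ZEB1 transcript and 6 times in that of ZEB2. It occurs 3 times in FN1, 1 time each in CDH11 and SNAI2, and not in VIM, CDH1, CDH2, EPCAM or TWIST1. Of 16452 tested genes with a transcript, 25% hold at least 1 match and 0.0547% hold as many as ZEB1. The complement of the miR-141 seed, CAGTGTT, occurs 7 times in ZEB1, 7 times in ZEB2 and 1 time in FN1, and in no other member. At least 1 match to it occurs in 30.3% of those genes, and as many as in ZEB1 in 0.0669%. The matches were searched in the sense strand of whole transcripts.

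These libraries do not measure mature microRNAs, but the table holds MIR200CHG, the host gene of miR-200c and miR-141. It had 10, 6, 7 and 15 counts in PFHxA libraries a to d, 11, 6, 17 and 19 in PFBA libraries and 16, 18, 30 and 15 in control libraries. After scaling, every PFHxA library (0.317 to 0.742 CPM) lay below every control library (0.746 to 1.62 CPM), and PFBA (0.324 to 0.937 CPM) overlapped with both. The gap was narrow, between 15 counts in PFHxA d and 16 in control a. Groups did not overlap for 20.7% of all tested genes in PFHxA against control. The log2 fold of MIR200CHG was -1.03 for PFHxA against control (SE 0.377, adjusted p = 0.0866) and -0.67 for PFBA against control (SE 0.358, adjusted p = 0.57). Neither passed the threshold.

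ZEB2, the close relative of ZEB1, was near the limit of detection with 6 to 13 counts per library. It had 11, 10, 8 and 8 counts in PFHxA libraries a to d, 11, 11, 11 and 13 in PFBA libraries and 6, 13, 8 and 11 in control libraries. The groups overlapped, and the log2 fold was -0.016 for PFHxA against control (interval -0.67 to 0.64, adjusted p = 0.988) and 0.18 for PFBA against control (interval -0.45 to 0.81, adjusted p = 0.883). For PFHxA against PFBA it was -0.20 (interval -0.83 to 0.44, adjusted p = 0.741). TWIST1, a basic helix-loop-helix factor of mesoderm and EMT, had 4, 0, 2 and 0 counts in PFHxA libraries, 3, 2, 1 and 1 in PFBA libraries and 1, 0, 0 and 0 in control libraries. Those counts were too few to be tested. A count of 0 allows a level of up to 3 counts, which is 0.137 to 0.175 CPM in these libraries and covers counting error only.

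Of the epithelial genes, EPCAM fell after PFHxA. It had 39.3, 37.8, 37.8 and 38.2 CPM in PFHxA libraries a to d. It had 40.0, 44.6, 40.6 and 44.5 CPM in PFBA libraries and 43.3, 40.9, 43.2 and 45.7 CPM in control libraries. Every PFHxA library lay below every PFBA and control library, and PFBA and control overlapped. PFHxA against control gave a log2 fold of -0.18 (SE 0.0526, interval -0.29 to -0.06, adjusted p = 0.0384). The folds were -0.03 for PFBA against control (interval -0.14 to 0.08, adjusted p = 0.898) and -0.15 for PFHxA against PFBA (interval -0.26 to -0.04, adjusted p = 0.0863). In the trend-removed fit, the fold for PFHxA against control was -0.13 and the call was lost (adjusted p = 0.216). The call was also lost without a filter on low counts (adjusted p = 0.0866), in a fit of the 8 libraries compared (adjusted p = 0.0507) and in 6 of 12 fits that each left out 1 library, namely PFHxA b, c or d or control a, c or d, with adjusted p up to 0.104. EPCAM has a GC content of 47.0% and lies on chromosome 2 from 47345158 to 47387601.

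CDH1, whose product E-cadherin holds epithelial cells together at adherens junctions, was low throughout. It had 10.2, 9.14, 10.1 and 7.91 CPM in PFHxA libraries a to d. It had 10.3, 10.3, 12.6 and 10.7 CPM in PFBA libraries and 9.93, 9.53, 5.98 and 8.41 CPM in control libraries. All PFBA libraries lay above all control libraries and above all PFHxA libraries, narrowly in the second case, and control c was the lowest of the 12. Groups that did not overlap were seen for 5.96% of all tested genes in PFBA against control and for 20% in PFHxA against PFBA, and CDH1 was 1 of 2 members in each. Its log2 fold was 0.37 for PFBA against control (SE 0.143, interval 0.06 to 0.68, unadjusted p = 0.0224, adjusted p = 0.434). It was 0.14 for PFHxA against control (interval -0.17 to 0.45, adjusted p = 0.593) and -0.23 for PFHxA against PFBA (interval -0.54 to 0.08, adjusted p = 0.335). Without control c, the fold for PFBA against control was 0.24.

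CDH2, the N-cadherin gene that many mesenchymal and neural cells express in place of CDH1, was all but silent. It had 2 counts in PFHxA c and 0 in the other PFHxA libraries, 2 counts in PFBA a and 0 in the other PFBA libraries, and 3 counts in control d and 0 in the other control libraries. No group was above the 3 counts that a 0 allows, so no fold is given.

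CDH11, the gene for the type II cadherin of osteoblasts, fibroblasts and invasive carcinoma cells, rose after PFHxA. It had 396, 414, 410.2 and 403 CPM in PFHxA libraries a to d. It had 393, 369, 398 and 362 CPM in PFBA libraries and 369, 373, 339 and 311 CPM in control libraries. All PFHxA libraries lay above all control libraries, and PFBA overlapped with both other groups. Its log2 fold was 0.22 for PFHxA against control (SE 0.0556, interval 0.10 to 0.34, adjusted p = 0.0184). It was 0.13 for PFBA against control (interval 0.0088 to 0.25, unadjusted p = 0.0373, adjusted p = 0.478) and 0.09 for PFHxA against PFBA (interval -0.03 to 0.21, adjusted p = 0.321). The first of these stayed past the threshold in all 12 fits that left out 1 library, with log2 folds from 0.17 without control d to 0.26. CDH11 has a GC content of 42.9%, below the 49.1% of genes not called, and in the trend-removed fit its fold was 0.24 (adjusted p = 0.0188). CDH11 lies on the minus strand of chromosome 16 from 64943753 to 65126112, and AC010533.1, a gene inside it on the same strand, had 209 counts over the 12 libraries.

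VIM did not separate the groups. It had 656, 627, 651 and 662 CPM in PFHxA libraries a to d. It had 859, 648, 641 and 626 CPM in PFBA libraries and 857, 594, 633 and 667 CPM in control libraries. PFBA a and control a stood apart from the other 10 libraries, which lay between 594 and 667 CPM. Log2 folds were -0.08 for PFHxA against control (interval -0.35 to 0.18, adjusted p = 0.719), 0.01 for PFBA against control (interval -0.26 to 0.28, adjusted p = 0.985) and -0.09 for PFHxA against PFBA (interval -0.36 to 0.17, adjusted p = 0.685). VIM-AS1, which overlaps the start of VIM on the other strand, had 349 counts over the 12 libraries.

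FN1, the gene for fibronectin, the matrix glycoprotein that integrins bind, rose after PFHxA by more than any other called member. It had 65.3, 62.7, 60.9 and 70.2 CPM in PFHxA libraries a to d. It had 61.5, 58.6, 56.8 and 56.1 CPM in PFBA libraries and 54.6, 54.1, 54.0 and 46.8 CPM in control libraries. All PFHxA and all PFBA libraries lay above all control libraries, PFHxA c lay below PFBA a, and control d was the lowest of the 12. The log2 fold for PFHxA against control was 0.31 (SE 0.0605, interval 0.18 to 0.44, adjusted p = 0.00554). For PFBA against control it was 0.15 (interval 0.02 to 0.28, unadjusted p = 0.0245, adjusted p = 0.447), and for PFHxA against PFBA it was also 0.15 (interval 0.02 to 0.28, unadjusted p = 0.0241, adjusted p = 0.12). The PFHxA call held in all 12 fits that left out 1 library, with log2 folds from 0.26 without control d to 0.34. FN1 has a GC content of 42.2%. In the trend-removed fit, its fold was 0.33 for PFHxA against control (adjusted p = 0.00953) and 0.24 for PFHxA against PFBA, which then passed the threshold (adjusted p = 0.0439). In that fit, 2.62% of all genes were called in the first comparison and 0.882% in the second. The same fit took the PFBA fold to 0.08 (adjusted p = 0.693).

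The FN1 promoter window is shown because FN1 had the smallest adjusted p of the members. It is the RefSeq window at chr2:215436019-215436318 on the minus strand (GRCh38.p14), printed 5′ to 3′ along the gene, from 250 bases before the start to 50 after. Capitals mark TGACGTCA, the palindrome bound by factors of the CREB and ATF family, whose first base is 183 bases before the start.
FN1 promoter: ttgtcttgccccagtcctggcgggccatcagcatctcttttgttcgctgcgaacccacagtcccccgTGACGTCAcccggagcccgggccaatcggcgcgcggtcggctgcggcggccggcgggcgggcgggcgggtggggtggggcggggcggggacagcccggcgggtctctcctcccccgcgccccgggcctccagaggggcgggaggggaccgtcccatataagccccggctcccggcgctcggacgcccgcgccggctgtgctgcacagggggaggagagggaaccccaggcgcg
TGACGTCA occurs in 1.85% of the 35116 windows, and the first listed windows of VIM, CDH2, ZEB1 and ZEB2 did not hold it. The further windows of CDH2 (2 listed) and ZEB1 (7 listed) were not searched one by one. The FN1 window has a GC content of 76.7%, while the transcript has 42.2%.

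**Figure D3:**
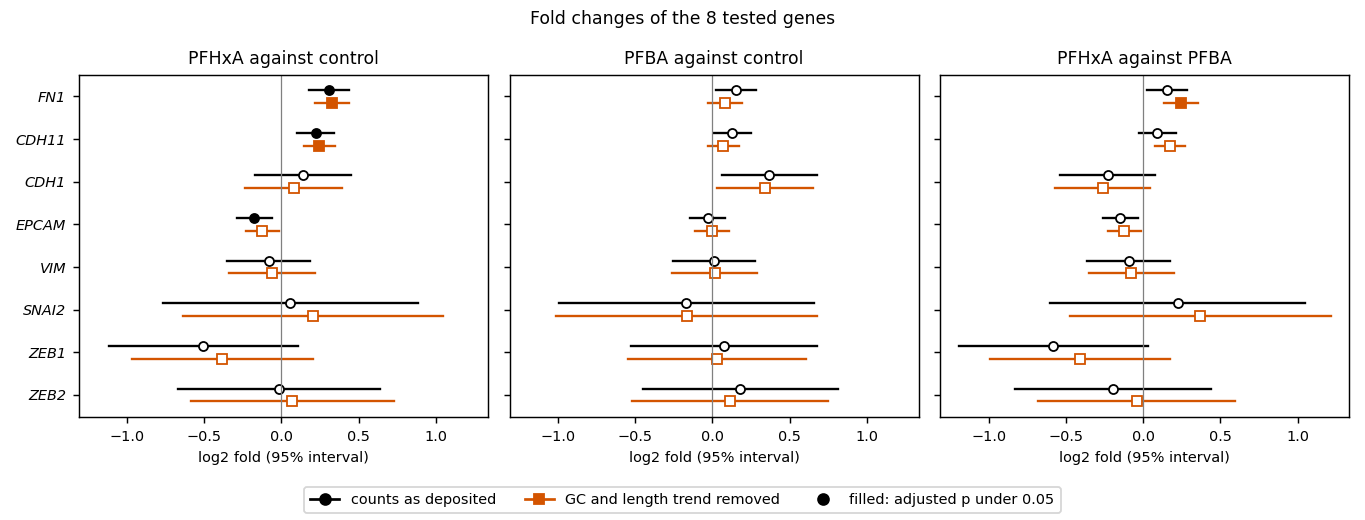
Log2 folds (horizontal axis) with 95% intervals of the 8 tested genes for PFHxA against control, PFBA against control and PFHxA against PFBA. Black circles come from the counts as deposited, orange squares from the trend-removed fit, and filled symbols have an adjusted p under 0.05. FN1 and CDH11 are filled in both fits for PFHxA against control and EPCAM only in the first, while SNAI2, ZEB1 and ZEB2 have the widest intervals.

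PFHxA and PFBA were also compared directly, at the same dose and time and over the 8 tested genes. For FN1, CDH11, EPCAM and VIM the 95% interval of the log2 difference stayed within -0.36 to 0.28. For CDH1 it ran from -0.54 to 0.08, and for the uneven ZEB1 and SNAI2 it reached down to -1.19 for ZEB1 and up to 1.05 for SNAI2. No adjusted p passed the threshold on the counts as deposited, which does not show that the acids act alike.

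**Figure D4:**
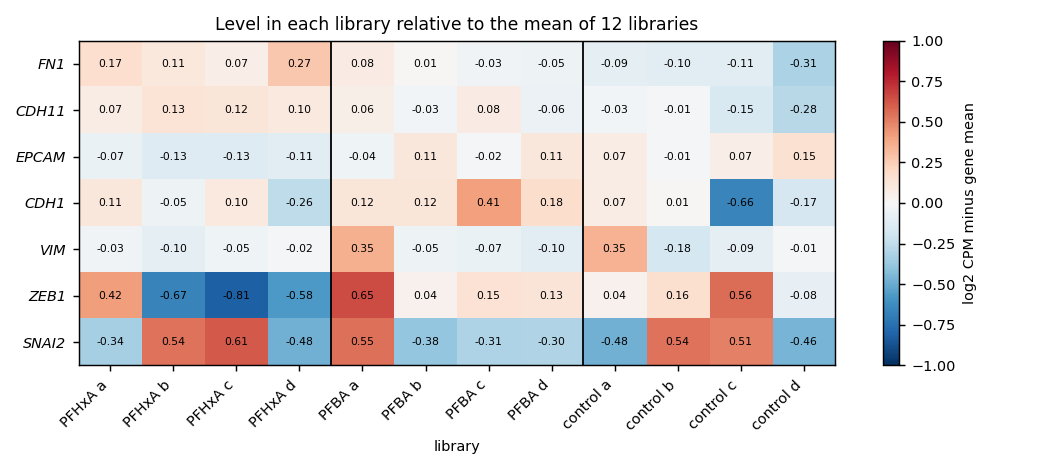
Level of the 7 members above 1 CPM in each library, as log2 CPM minus the mean of that gene over the 12 libraries, by colour and by the printed value, with PFHxA libraries left, PFBA libraries in the middle and control libraries right. FN1 and CDH11 are positive in all PFHxA libraries and negative in all control libraries. SNAI2 has values of both signs in every group, and ZEB1 is lowest in PFHxA b, c and d but positive in PFHxA a.

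Genes of the mesenchymal state that were called after PFHxA were all higher than in control. Of 26 tested mesenchymal state genes, 6 rose and none fell after PFHxA against control, with a median log2 fold of 0.10 against -0.00385 for all tested genes. In this comparison 6.08% of all tested genes were called higher and 8.82% lower. This list, like the others below, was chosen with earlier results of these data known, and it holds the called members FN1 and CDH11. Its counts therefore describe the listed genes and cannot test for a mesenchymal shift. Besides FN1 and CDH11, the 6 that rose included FBN1, ITGA5 and PLAU. FBN1, the gene for fibrillin-1 of elastic microfibrils, averaged 61.7 ± 3.85 CPM after PFHxA, 56.0 ± 2.78 CPM after PFBA and 48.0 ± 5.61 CPM in control cells (SD, n = 4 each), with a log2 fold of 0.36 for PFHxA against control (edgeR adjusted p = 0.0083). ITGA5, the alpha chain of the main fibronectin receptor, had a log2 fold of 0.22 (edgeR adjusted p = 0.00757), and PLAU, the urokinase gene, 0.24 (edgeR adjusted p = 0.0272). In the trend-removed fit, 4 of the 6 stayed past the threshold, FN1, CDH11 and FBN1 among them, where 2.62% of all tested genes were called. ITGA5 and PLAU lost their call in that fit (edgeR adjusted p = 0.223 and 0.155). After PFBA, the median of the 26 was 0.07. Between PFHxA and PFBA none was called by edgeR, with a median of 0.09.

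Of 31 tested epithelial state genes, 2 rose and 1 fell after PFHxA against control, with a median log2 fold of 0.04. These 3 of 31 are a smaller share than the 14.9% called among all tested genes. JUP, the gene for plakoglobin of desmosomes and adherens junctions, averaged 506 ± 9.91 CPM after PFHxA, 434 ± 21.5 CPM after PFBA and 446 ± 10.3 CPM in control cells (SD, n = 4 each). Its log2 fold was 0.18 against control (edgeR adjusted p = 0.00938) and 0.22 against PFBA (edgeR adjusted p = 0.00434). DSP, the desmoplakin gene, was the other that rose, and EPCAM was the gene that fell. None of the 3 stayed past the threshold in the trend-removed fit. After PFBA none of the 31 was called by edgeR against control, and the median was -0.03. Between PFHxA and PFBA 3 were higher and 1 lower, and these 4 of 31 are a share close to the 10.9% called among all tested genes. KRT7 (log2 fold 0.18) and SPINT1, a membrane protease inhibitor (0.35), joined JUP among the higher, and PATJ, a polarity scaffold (-0.21), was the lower. KRT7, SPINT1 and JUP have transcripts of 60.4% to 62.9% GC, and none of these 4 passed in the trend-removed fit.

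Of the cadherin partners, 3 of 11 tested genes rose after PFHxA against control and none fell, with a median log2 fold of 0.14, beside 6.08% higher and 8.82% lower among all tested genes. These were JUP, VCL, the vinculin gene (0.15), and NECTIN2, an adhesion molecule that recruits afadin (0.23). None of them passed in the trend-removed fit. None of the 11 was called by edgeR after PFBA. Of 19 cadherin genes listed with CDH1 and CDH11, 7 were tested and CDH11 alone was called, after PFHxA against control, where 14.9% of all tested genes were called. Of 13 tested partners of fibronectin and vimentin, 3 rose and none fell after PFHxA, beside the same 6.08% and 8.82%. They were ITGA5, PLEC, the gene for the linker plectin (0.36), and SYNM, an intermediate filament gene (0.19), and none passed in the trend-removed fit.

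Beside the 4 transcription factors among the members, 14 further EMT factors were listed, and 10 of the 18 in all were tested. TCF3, whose E2A proteins bind E-boxes, averaged 127 ± 4.90 CPM after PFHxA, 109 ± 8.73 CPM after PFBA and 106 ± 3.55 CPM in control cells (SD, n = 4 each). It was the 1 factor called, with a log2 fold of 0.26 against control (edgeR adjusted p = 0.00745) and 0.22 against PFBA (edgeR adjusted p = 0.021), and it has a GC content of 61.2%. In the trend-removed fit TCF3 was not called against control (edgeR adjusted p = 0.167). This 1 call among 10 tested factors stands beside 14.9% of all tested genes called against control and 10.9% called against PFBA. SNAI1, the relative of SNAI2 that acts early in EMT, averaged 0.0644 CPM after PFHxA, 0.172 CPM after PFBA and 0.0281 CPM in control cells and was not tested. A further list joined guardians of the epithelial state with splicing factors of either state, among them ESRP1 and ESRP2, which direct epithelial splicing. Of its 15 tested genes, none was called by edgeR in any comparison. ESRP1 averaged 18.5 ± 2.10 CPM after PFHxA, 19.1 ± 0.449 CPM after PFBA and 21.6 ± 3.22 CPM in control cells (SD, n = 4 each).

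Genes that carry signals into EMT moved both ways after PFHxA. Of 30 tested ligands, receptors and signal carriers, 6 rose and 3 fell against control, with a median log2 fold of 0.08, beside 6.08% and 8.82% of all tested genes. The receptor gene NOTCH1 rose by 0.37 on the log2 scale (edgeR adjusted p = 0.00177) and was also called in the trend-removed fit (edgeR adjusted p = 0.024). The other 5 that rose, SMAD3 (0.26), FZD7 (0.25), JAG1 (0.23), FGFR1 (0.18) and SMAD7 (0.17), lost their call in that fit, with edgeR adjusted p from 0.066 to 0.658. TGFB2, a TGF-beta ligand gene, and BMPR2, a BMP receptor gene, were called higher in that fit (edgeR adjusted p = 0.0196 and 0.0162) but not on the counts as deposited. BMPR1A, a BMP receptor gene, fell by 0.18, FGF2, a fibroblast growth factor gene, fell by 0.21 and IL6ST, the gene for the shared receptor chain of interleukin-6 cytokines, fell by 0.21. None of these 3 was called in the trend-removed fit, and their GC contents were 36.6% to 40.6%. Of 15 corepressors that SNAIL and ZEB factors recruit, 4 rose and 1 fell, beside the same 6.08% and 8.82%. HDAC2, a histone deacetylase gene, fell by 0.31 (edgeR adjusted p = 0.00359) and stayed past the threshold in the trend-removed fit (edgeR adjusted p = 0.036). SMARCA4 (0.23) and DNMT1 (0.24) were among those that rose, and none of the 4 passed in that fit. After PFBA against control none of the genes of these 2 lists was called by edgeR. Between PFHxA and PFBA, 5 of the 15 corepressors were higher and 3 lower. Of the 30 ligands, receptors and signal carriers, 1 was higher and 4 were lower there. These counts stand beside 3.84% higher and 7.07% lower among all tested genes, and none of the 2 lists was called there in the trend-removed fit.

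**Figure D5:**
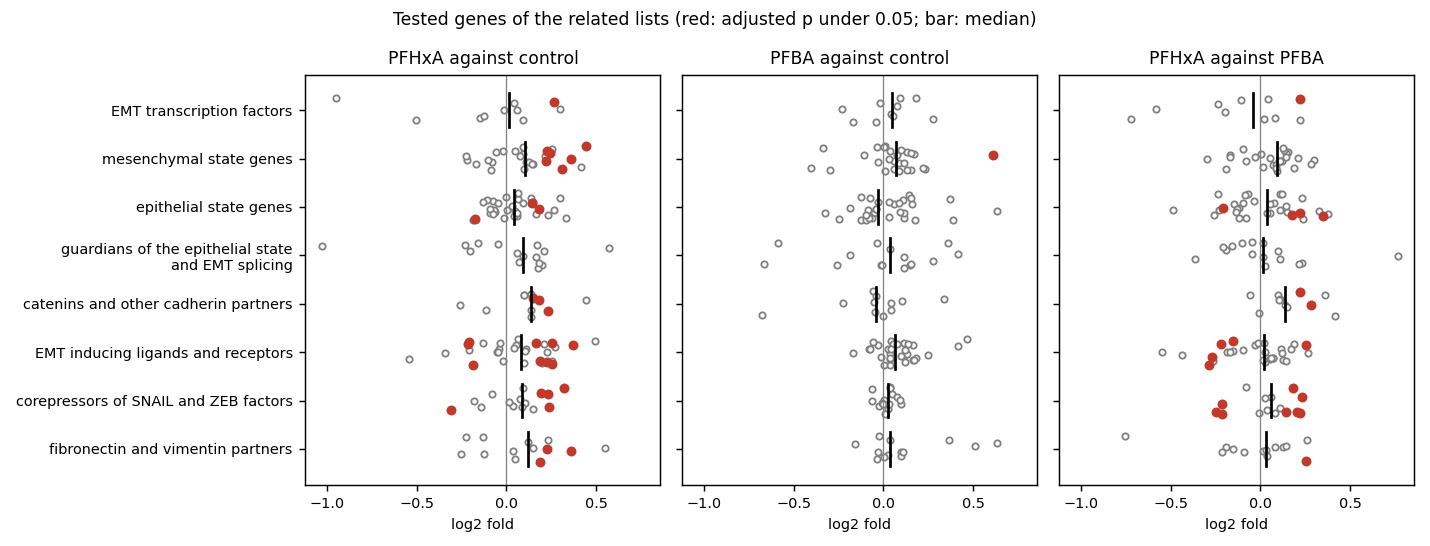
Log2 folds (horizontal axis) of the tested genes of 8 related lists, 1 row per list, for PFHxA against control, PFBA against control and PFHxA against PFBA. Each point is a gene, red where the edgeR adjusted p was under 0.05, and the black bar is the median of the list. Red points lie on both sides of 0 for PFHxA against control and for PFHxA against PFBA.

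The genes whose levels ran most like a member over the 12 libraries were found by Pearson's correlation of log2 CPM, as a description of libraries that share depth, GC trend and group. FN1 was closest to MAML3 (r = 0.958), EP300 (0.957) and DOP1B (0.955), and CDH11 to NEO1 (0.968), TMEM131 (0.967) and CBL (0.962). EPCAM was closest to MNAT1 (0.942), OSTM1 (0.935) and EIF3H (0.924). CDH1 was closest to MORC4 (0.918), ZYG11B (0.877) and SLAIN2 (0.843). VIM ran most like MRPL43 (0.886), MAU2 (0.882) and MAPRE2 (0.877). ZEB1 ran most like POLQ (0.92), FXR1 (0.907) and NET1 (0.895), and SNAI2 like MANBA (0.843), ACOX3 (0.841) and TUBG2 (0.797). No member was among the 3 genes closest to another member, but only genes averaging at least 10 CPM were eligible. CDH1, ZEB2, TWIST1 and CDH2 averaged less and could not have appeared. A place outside the first 3 does not show that members vary apart.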

How the data were processed

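RNA was sequenced in 12 libraries of RPMI2650 cells (4 per group), made from total RNA with a VAHTS kit and run on an Illumina instrument, per the labels. The authors deposited raw read counts per Ensembl gene, from reads aligned by HISAT2 2.0.4 to GRCh38 (hg38) per the submitters' processing notes. No source used here names the counter, the annotation release or the strand setting. Column prefixes were read as PFHxA, PFBA and control. A further 12 columns, the authors' FPKM, were not used, so levels between genes, planned on FPKM, are given as CPM per kilobase.

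Deposited counts were filtered by filterByExpr on groups (minimum count 10, total 15), scaled by TMM and fitted in edgeR 4.0.16 (R 4.3.3; limma 3.58.1, DESeq2 1.42.0) by a two-sided quasi-likelihood F test with robust dispersion over all 12 libraries, group as the only term and Benjamini-Hochberg adjustment over 16554 genes at 0.05. The SE of a log2 fold follows from its F statistic (size over root of F), with 95% intervals. TMM-scaled totals gave CPM, and correlations used log2 CPM with a prior count of 2. The script was tested on simulated counts. GENCODE 29 gave the longest transcript of 50076 gene identifiers, and RefSeq gave promoters for 5 of 10 members. CDH1, CDH11, EPCAM, SNAI2 and TWIST1 have no promoter shown.

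The members and lists were chosen with earlier results of these data known. All members are named. Of each further list, up to 4 called genes with the smallest p are named, with DSP named to complete a count of called genes, after its values were seen. Some genes that this rule picks are not reported here. For each member of at least 1 CPM, the 3 most alike genes of at least 10 CPM are named. KRT5, KRT7, KRT14, KRT15, TP63, GRHL2, COL1A1, COL1A2, LUM, PDGFRA, PDGFRB, THY1, SMAD3, SMAD7, FZD7, JAG1, FGFR1, TGFB2, BMPR2, SNAI1, ESRP1, ESRP2, ZNF264 and MIR200CHG were named after their values were seen. Alternatives covered scaling (RLE, upper quartile), the filter (none, or stricter with 1 CPM in 4 libraries and a mean of 50 counts), the tool (DESeq2, limma-voom), the libraries fitted (only the 8 under comparison) and the omission of each library in turn. A trend-removed fit took out natural splines (5 degrees of freedom each) over GC content and log2 transcript length, as offsets. Python 3.11.15, matplotlib 3.10.9, pandas 2.3.3 and numpy 2.4.6 drew the figures.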

Additional observations from a re-analysis of the deposited data

Results flagged for a closer look

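Of 24 groups of 4 libraries (8 tested genes in 3 groups), 5 held a library whose gap to its nearest neighbour was above Dixon's 95% critical value, set against the group's range, and chance flags about 1 in 20 groups. ZEB1 had 31.4 CPM in PFHxA a, against 15.7 CPM in the next library of the group. ZEB1 also had 36.8 CPM in PFBA a, against 26.0 CPM in the next. VIM had 859 CPM in PFBA a, against 648 CPM in the next. SNAI2 had 205 CPM in PFBA a, against 114 CPM in the next. FN1 had 46.8 CPM in control d, against 54.0 CPM in the next. PFBA a is thus the far library for ZEB1, VIM and SNAI2, and each of the 3 genes is high in it. What sets these libraries apart was not tested.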

How the results depend on the processing

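Across the alternatives, 444 log2 folds of members kept their direction and their side of the threshold, 20 turned sign, 9 lost a call and 3 gained one, and the 20 that turned belong to VIM, ZEB1, ZEB2 and SNAI2, none of them called in either direction. The counts of called genes moved most in the trend-removed fit, to 433 for PFHxA against control and 146 for PFHxA against PFBA, where the count of members became 1 (FN1). For PFBA against control, all genes called became 2 without a filter, 2 with the 8 libraries compared, 0 with limma-voom and 44 with DESeq2, while 1632 had an unadjusted p under 0.05. ZEB2 for PFHxA against control turned to 0.047 with limma-voom and 0.0711 in the trend-removed fit. With merged exons as the length, a choice made after seeing the data, levels became 131 for VIM, 28.3 for CDH11, 16.4 for EPCAM, 3.38 for FN1, 1.55 for CDH1 and 0.0208 for ZEB2. Leaving out each library in turn gave 2 to 4 members and 1523 (without PFHxA b) to 2396 genes for PFHxA against control, 0 members and 0 to 4 genes for PFBA against control, and 0 to 1 members and 1035 (without PFHxA b) to 2187 genes for PFHxA against PFBA. In those fits the log2 fold for PFHxA against control ran from -0.147 to 0.0408 for VIM, from -0.229 to 0.152 for ZEB2 and from -0.121 to 0.235 for SNAI2. For PFBA against control it ran from -0.109 to 0.134 for VIM, from -0.0825 to 0.221 for ZEB1, from -0.0321 to 0.35 for ZEB2 and from -0.443 to 0.0118 for SNAI2, and for PFHxA against PFBA from -0.141 to 0.0257 for VIM. The cause was not tested. No paired analysis was possible because the columns carry letters that are not tied to the replicate numbers of the labels. Depth limits ZEB2, TWIST1 and CDH2, which had 13 counts or fewer in every library.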
